A study of Homo sapiens with 21 samples.

Results

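The primary cilium is a single antenna-like projection of the cell membrane, built on a microtubule core, in which most cells of a tissue receive Hedgehog signals. It holds no ribosomes, so its parts and receptors are carried in and out by intraflagellar transport: kinesin-2 moves trains of the IFT-B and IFT-A complexes toward the tip, dynein-2 moves them back, and the BBSome, recruited to the membrane by the GTPase ARL6, exports membrane proteins. The 34 genes described here encode this machinery and were taken by symbol from a fixed list, 34 of the 60651 genes in the count table. They comprise 7 genes of the IFT-B core, 4 of peripheral IFT-B, 6 of IFT-A, 3 of kinesin-2, 2 of dynein-2, 7 of the BBSome, 3 chaperonin-like genes that assemble the BBSome, ARL6 and the cargo adaptor TULP3. All 34 were found once, none was at 0 counts in any library, and all 34 passed the filter on low counts in every comparison.

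The RNA came from 21 xenograft tumors grown from A549-Luc2 cells, a human lung adenocarcinoma line carrying a luciferase reporter, implanted under the skin of female athymic nu/nu mice that were 6 to 8 weeks old. They were injected in Matrigel, so every tumor shares that matrix, and the hosts lack mature T cells. The mice were randomized to 10 per group, and 7 tumors per group were sequenced: Control (the oral vehicle of 3% DMSO, 7% ethanol, 5% PEG400 and 85% corn oil), Oxy186 and Oxy210, 2 oxysterol derivatives given by daily gavage at 50 mg/kg in that vehicle. Beyond an RNA integrity number over 8.0, the study's methods do not say how the 7 sequenced tumors of each group were chosen. The study's own expression comparison set 4 of the Oxy186 tumors, r1 to r4, against Control. Those 4 had been picked by where they lay on a principal component plot of these same libraries, so that comparison is not a randomized one, and its p-values do not carry the usual meaning.

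The libraries held 13787493 to 17865119 counts on human genes, of which the 34 genes took 0.0988% to 0.142%. Only reads aligned to the human genome were counted, which leaves out host cells apart from any mouse reads assigned to human genes. The share of such reads was not measured. Of 9 markers of A549 epithelium, all were present, from a mean of 167 CPM (counts scaled per 1e6 counts of the library) for CDH1 to 5521 for KRT8. Of 17 markers of multiciliated cells, 8 had a mean under 1 CPM, among them DNAI1, DNAI2, TEKT1 and SPAG6, and 9 were at 1 CPM or more, with CCDC40 at 32.0, TPPP3 at 16.9, DNAH5 at 10.6 and CAPS at 7.50. The summed level of the list was 59.6 to 110 CPM in Control, 58.6 to 91.2 in Oxy186 and 54.5 to 93 in Oxy210. Of 9 markers of alveolar type 2 cells, 5 had means under 0.1 CPM, the surfactant genes SFTPA1, SFTPA2, SFTPB and SFTPC and the factor NKX2-1, while ABCA3 averaged 51.1, SFTPD 3.20, NAPSA 2.05 and LAMP3 0.452. Of 14 markers of stroma and vessels, 8 had a mean under 1 CPM, while LUM averaged 101, COL1A1 40.8 and ITGAM 6.17. Whether mouse reads added to these counts was not tested. In bulk RNA, fewer cells of a type and less RNA per cell cannot be told apart.

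The libraries also differed in how counts depended on base composition. The GC slope, the change in log2 CPM for each 10 points of exon GC content relative to the average library, was -0.15 to 0.40 in Control, -0.33 to 0.26 in Oxy210, -0.51 to -0.18 in Oxy186 r1 to r4 and 0.08 to 0.49 in r5 to r7. A negative slope means that AT-rich genes had relatively more counts. The cilium genes are AT-rich on the whole: their exon GC content ran from 35.0% (BBS7) to 60.3% (IFT140), and 26 of the 34 lay at or under the median of all tested genes, 47.7%. Each comparison below was therefore also fitted with every library's own GC trend as an offset.

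Levels were first compared between the genes in Control tumors, as CPM per kilobase of the canonical transcript. IFT20, a small IFT-B protein that also works at the Golgi, was the highest at 71.9 ± 11.2 (SD, n = 7), and it exceeded the next gene, IFT27, in all 21 tumors. IFT27, a small GTPase of IFT-B that guides the BBSome out of the cilium, was at 40.4 ± 6.59, IFT81 at 34.2 ± 8.61 and IFT43 at 33.7 ± 5.58. These 3 could not be ordered, since IFT27 exceeded IFT81 in 10 of 21 tumors and IFT81 exceeded IFT43 in 12 of 21.

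At the other end, BBS1, a BBSome subunit that binds ARL6, stood at 0.459 ± 0.223, with 9 to 43 counts per library. DYNC2H1, the heavy chain that powers dynein-2, stood at 0.933 ± 0.260 and BBS5, with 23.5% of its exon bases under another gene on the same strand, at 1.86 ± 0.241. BBS1 is uncertain in another way: 54.0% of its exon bases overlap another gene on the same strand, and the counts of both genes there cannot be told apart. Among the 33 neighboring pairs in the order of levels, the Control ranges were separate for only 2, IFT20 over IFT27 and BBS5 over DYNC2H1.

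**Figure D1:**
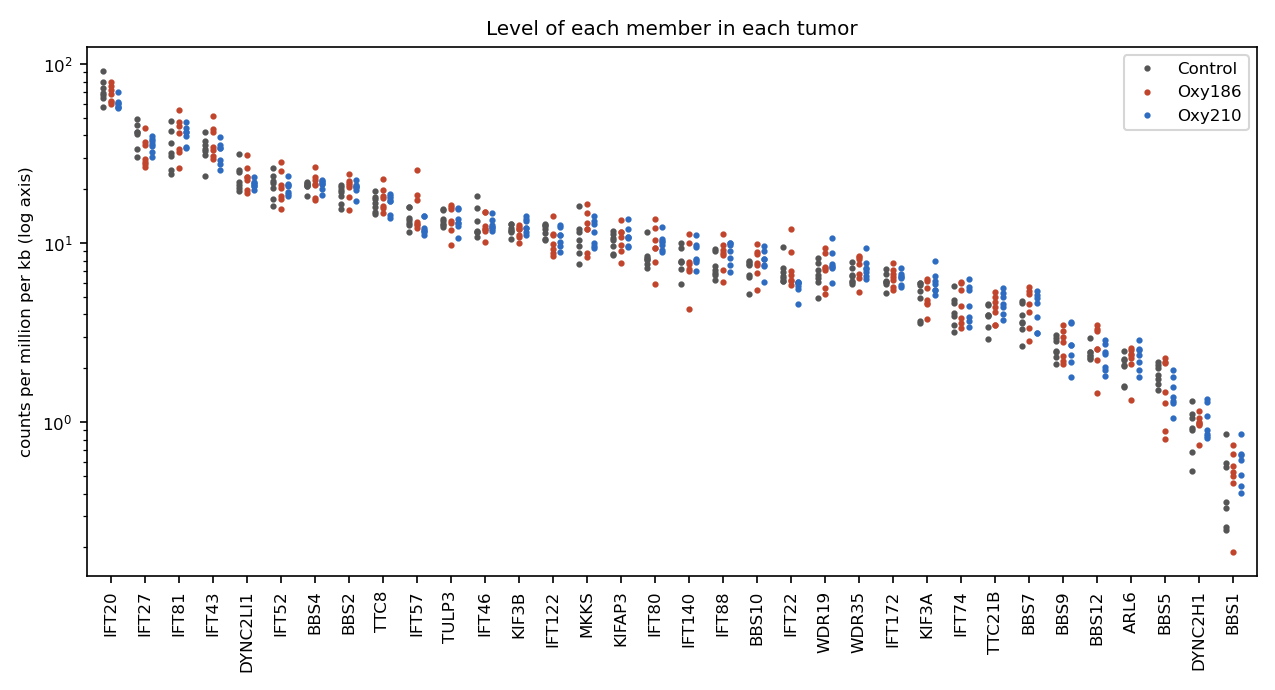
Level of each of the 34 genes in each tumor, in CPM per kilobase of the canonical transcript on a log axis, with 1 point per tumor and genes in order of their Control mean. The levels run from about 71.9 for IFT20 to 0.459 for BBS1, and the points of the 3 groups overlap for nearly every gene.

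Partners within a complex were not at equal levels. IFT81 and IFT74 form the tubulin-binding pair of IFT-B, yet IFT81 was higher per kilobase in all 21 tumors, by a median of 8.73-fold (range 6.55 to 11.8). Of the kinesin-2 trimer, the motor KIF3B exceeded the motor KIF3A by 2.25-fold and the accessory subunit KIFAP3 exceeded KIF3A by 1.97-fold, each in 21 of 21 tumors. The dynein-2 light intermediate chain DYNC2LI1 exceeded the heavy chain DYNC2H1 by 23.1-fold (16.8 to 46.0). Within the BBSome, BBS4 exceeded BBS1 by 37.9-fold (24.3 to 142) and BBS2 exceeded BBS7 by 4.55-fold (3.85 to 6.34). The ratio to BBS1 is uncertain, because BBS1 had 9 to 43 counts per library and 54.0% same-strand exon overlap. How far that overlap lowered its counts was not tested. These ratios rest on 1 transcript length per gene, and which isoforms the tumors used was not measured.

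Many ciliary genes are controlled by RFX factors, which bind an X-box made of 2 inverted half-sites. Promoter windows from RefSeq (GRCh38.p14, 250 bases before to 50 after the start) were at hand for 31 of the 34 genes, 36 windows in all. An X-box, taken as GTTNCC and its reverse complement 1 to 3 bases apart, was found in 2 of them, those of IFT122 and ARL6, and in 0.718% of all 35116 windows. The half-site GTTGCC, on either strand and so also inside an X-box, was found in 16 of the 36 windows (44.4%), of 14 genes, against 12.2% of all windows. The motifs were chosen with the data in view, a match is not proof of binding, and no test was made. The 2 X-box matches and the half-sites of IFT27 and IFT81 are shown, with the motif in capitals, because IFT122 and IFT27 are described further below and IFT81 is among the most abundant members:
IFT122, chr3:129440205-129440234, plus strand: catgtacGTTGCCAGGGGTAACgcaggtag
ARL6, chr3:97764726-97764755, plus strand: aagctcctGTTGCCAAGGGAACggtgcctg
IFT27, chr22:36776143-36776172, minus strand: ggagcttttggcGGCAACcaatcgagggtc
IFT81, chr12:110124345-110124374, plus strand: ggcctagcaaccGTTGCCaaggagctcgac

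The listed RFX genes differed widely in level, and which of them act on ciliary genes in these tumors was not tested. RFX7 averaged 58.8 CPM over the 21 tumors, RFX5 37.2, RFX1 15.7, RFX3 15.2 and RFX2 10.1, while RFX4 was at 0.038. FOXJ1, which directs motile cilia, averaged 3.82 CPM with a range of 0.483 to 11.7.

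The comparison of Oxy186 r1 to r4 with Control asks whether the tumors that the study set apart also differed in cilium transport genes. They did so by small amounts. IFT27 and IFT122 were lower, IFT80 was higher, and none of the 34 genes changed by more than 2-fold. Over all 34 genes, 29 had fold changes above 0, with a median log2 fold change of 0.23, against 8508 of 16852 and a median of 0.01 for all genes tested. Genes were tested by quasi-likelihood in edgeR, p-values were adjusted over all 16852 genes by Benjamini-Hochberg, and a gene was called at an adjusted p at or under 0.05. Without Oxy186 r4, no member was called, and of 17157 genes tested 1488 were called lower and 347 higher.

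By count, 2 of 34 genes were called lower where 15% of all genes were, and 1 of 34 was called higher where 4.73% were. The study's thresholds, which add a fold change over 2, called none of the 34 and 8.34% of all genes in this edgeR fit. The study itself tested with limma voom. At an unadjusted p under 0.05 there were 9 members and 5855 of the 16852 genes. Neither share was tested against that of all genes.

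IFT27 had log2 CPM values of 4.94, 4.89, 5.00 and 4.84 in r1 to r4. The Control tumors ran from 5.03 to 5.73, with a median of 5.49. All 4 treated tumors thus lay under every Control tumor. The log2 fold change was -0.53 (SE 0.14, edgeR adjusted p = 0.0161), a change of -30.8%. The other Oxy186 tumors, r5 to r7, were at 5.24, 5.56 and 5.32, inside the Control range.

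IFT122, an IFT-A subunit needed for return transport and for the entry of membrane receptors, was at 5.24, 5.34, 5.11 and 5.17 in r1 to r4. Control ran from 5.42 to 5.72 around a median of 5.61. These ranges were again separate, and the log2 fold change was -0.37 (SE 0.11, edgeR adjusted p = 0.0311). Tumors r5 to r7 held 5.51, 5.86 and 5.52. Separate ranges were found for these 2 of 34 genes and for 11.7% of all genes compared.

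IFT80, a peripheral IFT-B subunit, went the other way, with 5.78, 5.39, 5.23 and 5.62 in r1 to r4. Control ran from 4.87 to 5.53 around a median of 5.03, so the ranges overlapped, through Control r7 alone. The log2 fold change was 0.43 (SE 0.14, edgeR adjusted p = 0.0488). Tumors r5 to r7 held 5.24, 4.58 and 4.97. Its call held in 2 of the 11 fits that each left out 1 tumor, without Oxy186 r3 and without Control r7. Of the exon bases of IFT80, 27.6% overlap another gene on the same strand.

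**Figure D2:**
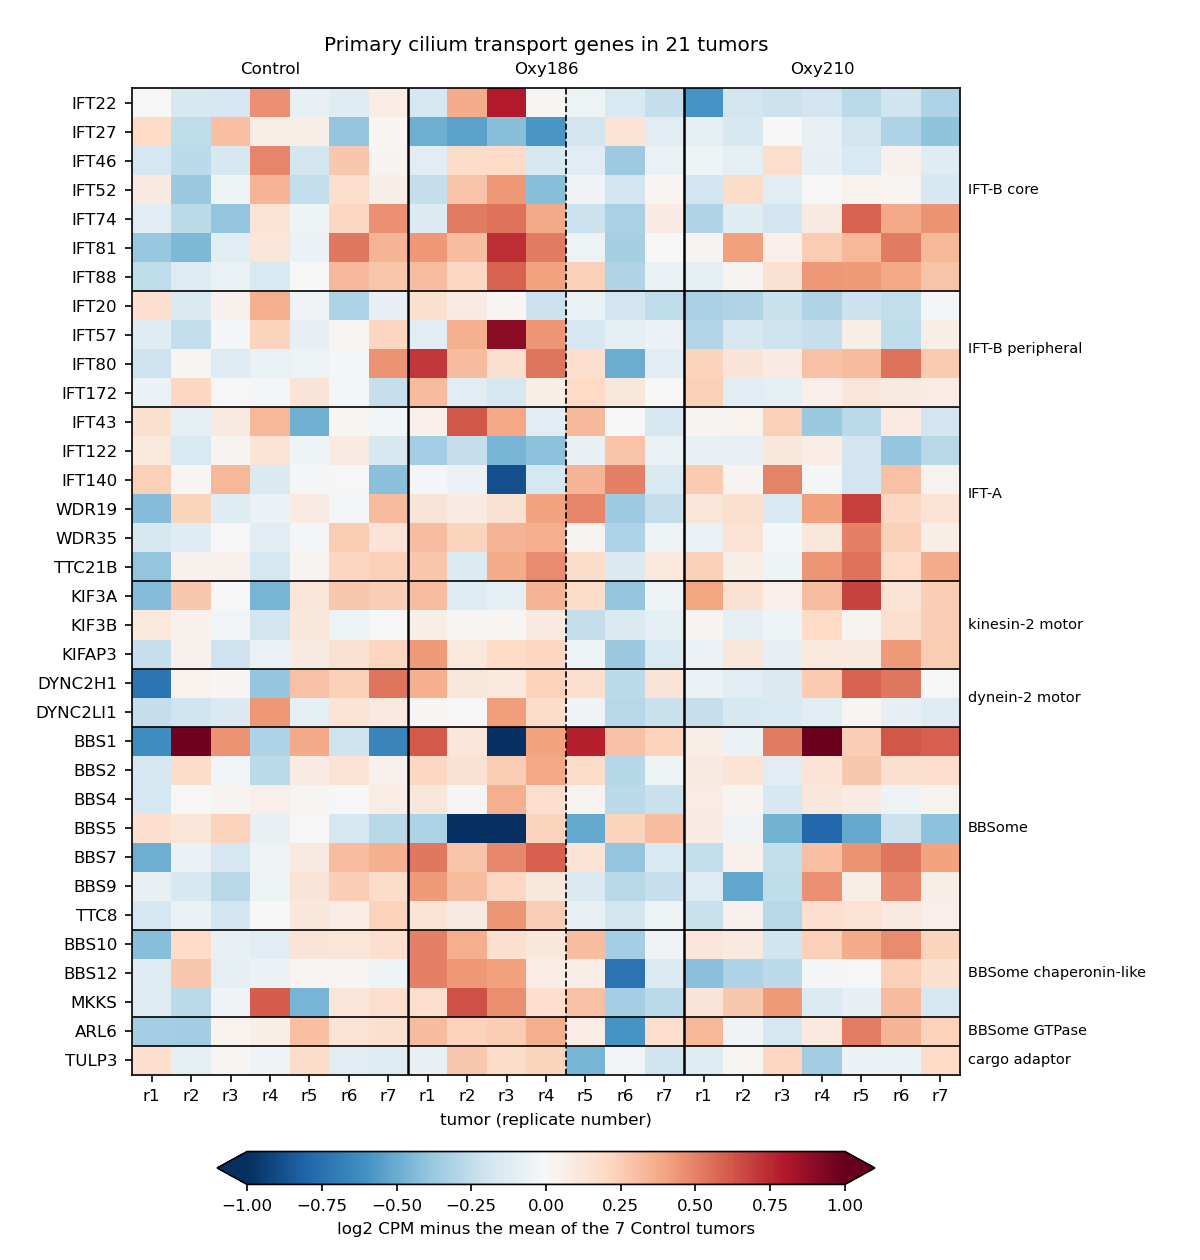
Log2 CPM of the 34 genes (rows, by role) in the 21 tumors (columns), as the difference from the mean of the 7 Control tumors, with colors capped at 1 in each direction and a dashed line after Oxy186 r4. IFT27 and IFT122 are blue in r1 to r4, where most other rows are red, and Oxy186 r6 and Control r1 are blue in most rows.

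In the IFT-B core, 6 of 7 fold changes were above 0, with only IFT27 below. The largest was that of IFT81 at 0.46 (SE 0.17), a value that did not pass (adjusted p = 0.0705). IFT88, which is needed to build a cilium at all, had 0.37 and an adjusted p of 0.0823, IFT74 had 0.32 and IFT22 0.28, while IFT46 and IFT52 were at 0.0094 and 0.04. Among the peripheral subunits, IFT57 had 0.43 (adjusted p = 0.0714), IFT172 0.03 and IFT20 -0.00019.

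In IFT-A, IFT140 was below 0 beside IFT122, at -0.27 (adjusted p = 0.296), and the other 4 were above it: WDR35 at 0.30 (adjusted p = 0.0724), TTC21B at 0.25, IFT43 at 0.25 and WDR19 at 0.18. With GC offsets, described below, IFT140 turned above 0.

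The motors lay closer to 0. KIF3A was at 5.28, 4.85, 4.88 and 5.31 in r1 to r4 and from 4.51 to 5.24 in Control, with a median of 5.09. Its log2 fold change was 0.09 (SE 0.17, adjusted p = 0.743), and those of KIF3B and KIFAP3 were 0.04 and 0.23. DYNC2H1 held 3.99, 3.75, 3.74 and 3.87 in r1 to r4, within the Control range of 2.91 to 4.17 (median 3.67). Its fold change was 0.15 (SE 0.21, adjusted p = 0.637), beside 0.15 for DYNC2LI1. None of the 5 motor genes was called by edgeR, at an unadjusted p under 0.05 either.

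Of the 7 BBSome genes, 6 were above 0 and none was called by edgeR, with BBS7 alone at an unadjusted p under 0.05. BBS1 was at 1.24, 0.75, -0.38 and 1.03 in r1 to r4 and from -0.03 to 1.60 in Control (median 0.42). With so few counts its log2 fold change of 0.03 had an SE of 0.39 (adjusted p = 0.962), and its 95% interval of -0.81 to 0.87 leaves room for a change of either sign. BBS7 had 0.45 (adjusted p = 0.0626), BBS9 0.26, BBS2 0.24, TTC8 0.23 and BBS4 0.16. BBS5, at 36 to 121 counts per library, was below 0 at -0.48 (SE 0.25, adjusted p = 0.191), with 2.26, 1.56, 1.42 and 2.80 in r1 to r4 and 2.30 to 2.80 in Control. Of the 4 tumors, r4 was at the top of the Control range.

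The chaperonin-like BBS10, which helps to fold BBS7 and its partners into a complex, was at 5.15, 5.01, 4.80 and 4.76 in r1 to r4. Control ran from 4.22 to 4.83 (median 4.76), and the log2 fold change was 0.28 (SE 0.14, adjusted p = 0.177). BBS12 had 0.36 and MKKS, with a same-strand overlap of 12.5%, 0.34. ARL6 was at 3.35, 3.26, 3.29 and 3.40 against 2.68 to 3.33 in Control (median 3.09), a fold change of 0.27 (SE 0.17, adjusted p = 0.252). TULP3, which brings receptors into the cilium together with IFT-A, was at 5.32, 5.66, 5.58 and 5.61 against 5.26 to 5.58 (median 5.36), a fold change of 0.15 (SE 0.12, adjusted p = 0.39). None of these 5 genes passed.

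These values moved with the GC content of the genes. Of the 26 members at or under the median exon GC content, 25 were above 0, with a median of 0.24, as were 6708 of the 8447 tested genes in that range, with a median of 0.21. Of the 8 members over it, 4 were above 0, with a median of -0.12, and 1786 of 8372 genes were, with a median of -0.39. Across the 34 genes, Pearson's r between exon GC content and the log2 fold change was -0.68, and across all genes it was -0.71. These are correlations across genes measured in the same libraries, and genes are not independent replicates.

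With each library's GC trend as an offset, the median log2 fold change of the 34 genes was 0.01, and 18 of 34 were above 0. IFT27 had -0.42 (edgeR adjusted p = 0.0580), IFT122 -0.30 (adjusted p = 0.0750) and IFT80 0.17 (adjusted p = 0.472), so none of the 3 calls held. IFT140 turned from -0.27 to 0.48 (adjusted p = 0.0422) and was the only member called, where 4.05% of all genes were. IFT140 was at 5.36, 5.32, 4.50 and 5.21 in r1 to r4 and 4.96 to 5.71 in Control (median 5.37), so without offsets 3 of the 4 lay within the Control range. When GC content was taken from the canonical transcript in place of all exons, an alternative added after the data were seen, IFT140 had 0.35 and no member was called. Offsets that left each library's mean in place, also added later, called IFT27 (-0.54) and IFT122 (-0.42) lower, each at an edgeR adjusted p of 0.0219. In that fit 691 of all 16852 genes were called lower and 147 higher. The median log2 fold change of all genes there was -0.11. For IFT27 the choice between exon and canonical GC content mattered: its canonical transcript is 58.4% GC and all its exons 51.3%. With offsets from canonical transcripts its log2 fold change was -0.0059.

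**Figure D3:**
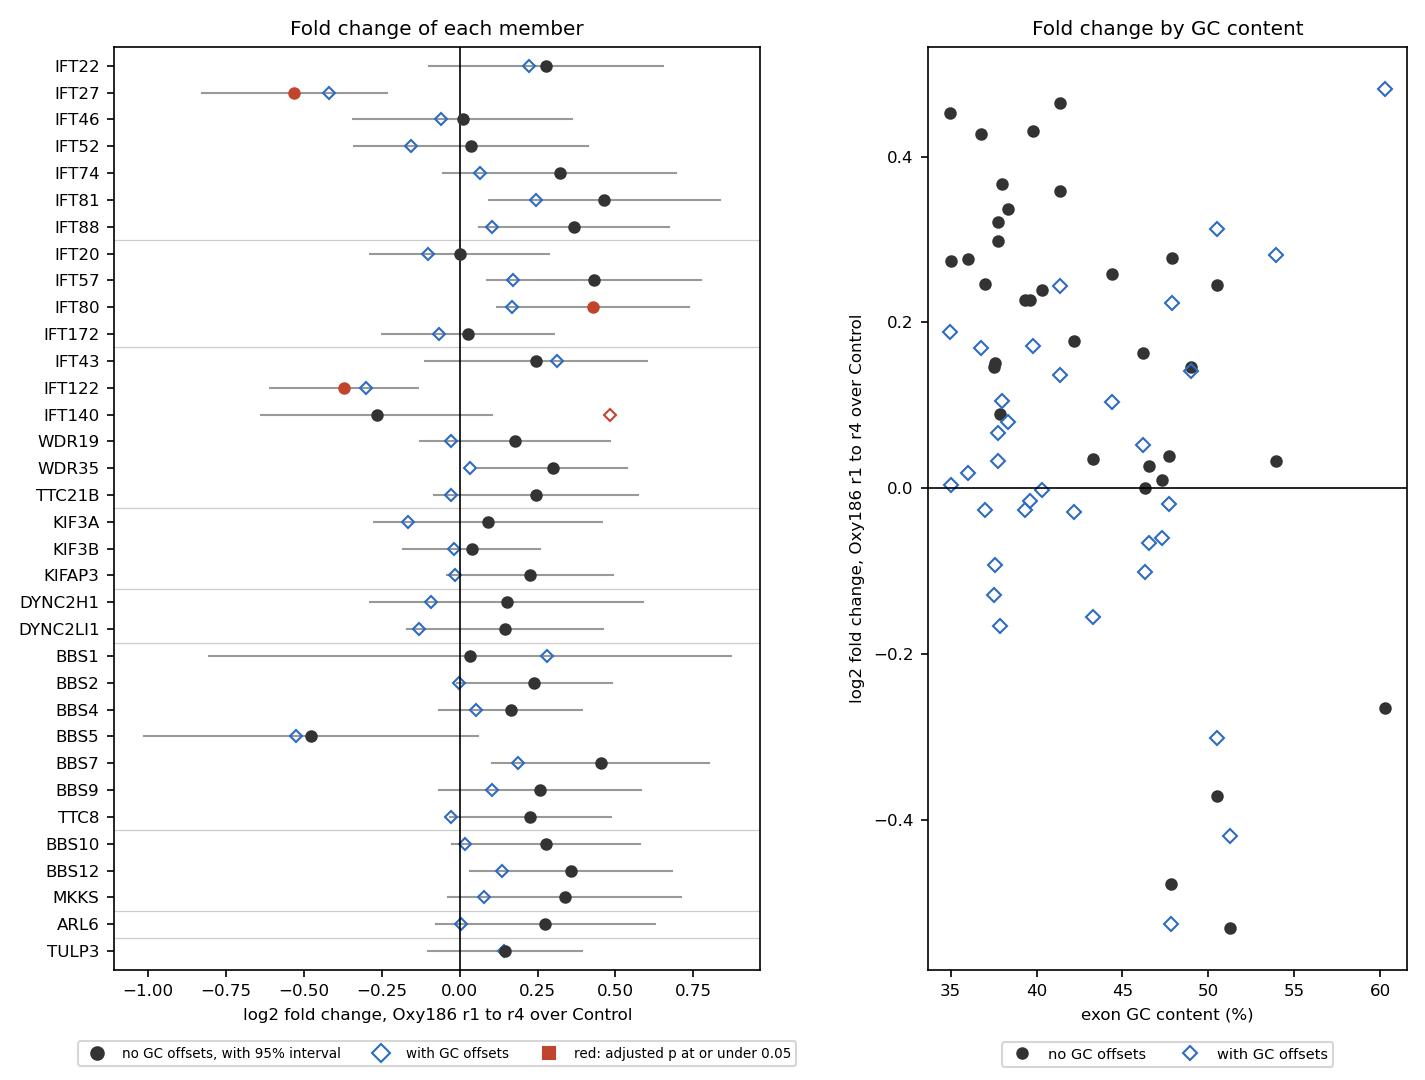
Log2 fold change of each gene in Oxy186 r1 to r4 over Control, by gene with 95% intervals (left) and against exon GC content in percent (right), without GC offsets (filled circles) and with them (open diamonds), red where the adjusted p was at or under 0.05. Without offsets the values fall as GC content rises, and with them 18 of 34 lie above 0.

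The GC slope and the level of the cilium genes were also set side by side tumor by tumor. The median difference of the 34 genes from their Control means was 0.17, 0.17, 0.23 and 0.21 in r1 to r4, the libraries with the slopes -0.30, -0.18, -0.51 and -0.47. In r5, r6 and r7 it was 0.03, -0.27 and -0.07, at slopes of 0.08, 0.49 and 0.18. Untreated tumors spanned -0.16 (Control r1, slope 0.40) to 0.12 (Control r7, slope -0.15), and Oxy210 tumors -0.10 (r3, slope 0.26) to 0.18 (r6, slope -0.13), while Oxy210 r5, with the lowest slope of its group at -0.33, had 0.09. Oxy186 r1 to r4 were above every Control tumor, and Oxy186 r6 was below every other tumor. Oxy210 r6, at 0.176, was also above every Control tumor, and above Oxy186 r1 (0.170) and r2 (0.168). Of the 34 genes, 24 to 27 exceeded their Control mean in Oxy186 r1 to r4, and 18, 6 and 9 did in r5, r6 and r7. In the Control tumors 9 to 25 did, and in the Oxy210 tumors 11 to 25. What sets the GC slope of a library was not tested.

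**Figure D4:**
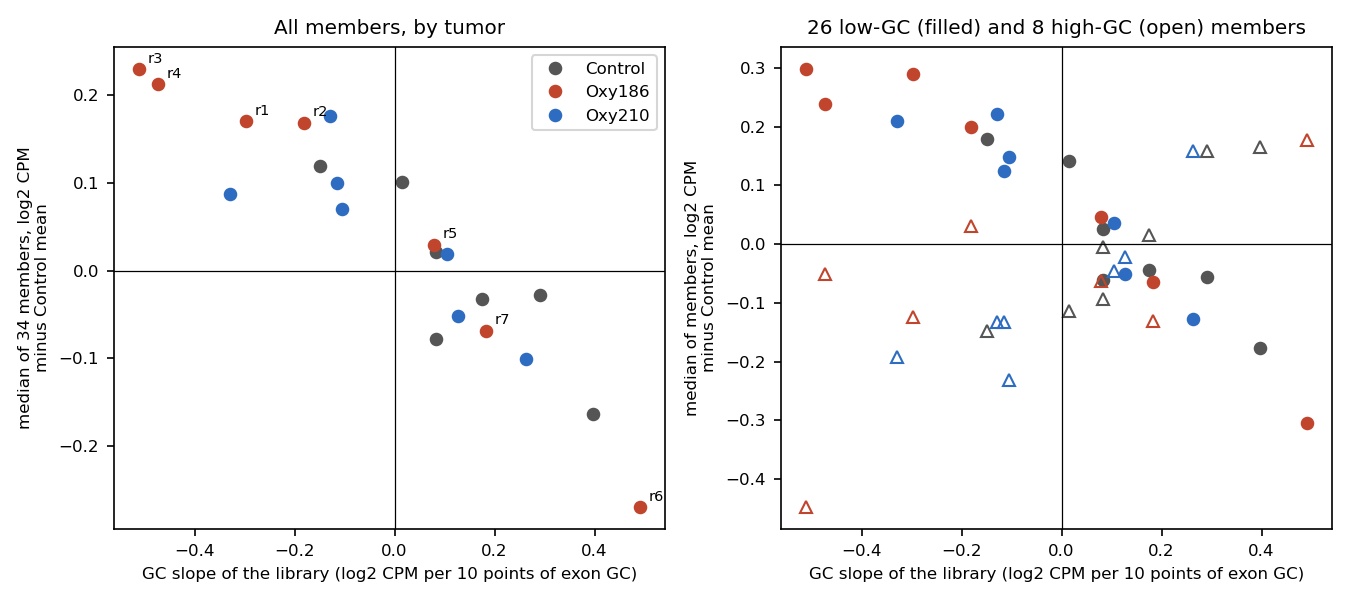
Median difference of the cilium genes from their Control means (log2 CPM) against the GC slope of each library (log2 CPM per 10 points of exon GC), with 1 point per tumor, for all 34 genes (left) and for the 26 at or under and the 8 over the median GC content (right, filled and open). On the left the medians fall from 0.23 in Oxy186 r3 to -0.27 in Oxy186 r6 as the slope rises, and on the right the high-GC members go the opposite way.

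Other cilium genes from fixed lists gave calls in both directions in r1 to r4, to be read beside the 15% lower and 4.73% higher among all genes. Of 17 further transport genes, 3 were lower, the dynein chains DYNC2I2 (-1.04) and DYNLRB1 (-1.20) and the kinesin KIF17 (-1.02). The BBSome subunit BBIP1 was higher (0.44). Of 20 genes of the transition zone, the gate at the base of the cilium, 3 were lower, B9D1 (-0.79), NPHP4 (-0.72) and MKS1 (-0.52), and 4 were higher, among them INVS (0.48) and TCTN3 (0.40). Of 20 tested genes of the basal body and ciliary membrane, FBF1 (-1.30), INPP5E (-0.82) and KIF7 (-0.56) were lower and OFD1 (0.44) was higher. RFX1 was lower (-1.11) among 8 tested RFX and FOXJ1 factors, and CAPS was lower (-1.48) among 10 tested multiciliated markers. With GC offsets, where 4.05% of all genes were called, 2 genes of these lists were: MKS1 at -0.59 (edgeR adjusted p = 0.00576) and DYNLL1, a light chain shared by several dyneins, at 0.70 (adjusted p = 0.0449). MKS1 was the only gene of these lists called in both fits. None of 9 A549 markers, 7 tested markers of stroma and vessels or 16 proliferation genes was called, and of 3 tested alveolar type 2 markers ABCA3 was lower (-0.75).

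All 7 sequenced Oxy186 tumors were also compared with Control, groups to which the mice had been randomized. This comparison showed no called member and no called gene by edgeR (0% of 16291), nor by limma voom or DESeq2. The median log2 fold change of the 34 genes was 0.08, with 23 above 0, and the values ran from -0.33 (IFT27) to 0.21 (IFT81). For all genes it was -0.0067, with 7968 of 16291 above 0. Of the 26 members at or under the median exon GC content, 20 were above 0, with a median of 0.09. Among all genes in that range 5837 of 8153 were, with a median of 0.08. IFT27 was the only member with an unadjusted p under 0.05, where 3.79% of all genes had one: -0.33, 95% interval -0.62 to -0.03, adjusted p = 0.862. No member had separate ranges, as did 0.0123% of all genes. With GC offsets the median was 0.0095, and IFT27 (-0.28) and IFT140 (0.32) had an unadjusted p under 0.05, where 5.91% of all genes had one, each with an edgeR adjusted p of 0.842.

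The randomized comparison of Oxy210 with Control, which uses the same Control tumors, likewise called no member and no gene by edgeR (0% of 16396). DESeq2 called 71 genes lower and 21 higher, limma voom none, and neither called a member. The median of the 34 genes was 0.10, with 23 above 0, and that of all genes 0.0086, with 8404 of 16396 above 0. Of the 26 members at or under the median exon GC content, 20 were above 0, with a median of 0.14. Among all genes in that range 5764 of 8202 were, with a median of 0.10. Of the 34 genes, 4 had an unadjusted p under 0.05, where 13.8% of all genes had: IFT22 (-0.27, adjusted p = 0.320), IFT20 (-0.22, adjusted p = 0.342), IFT80 (0.28, adjusted p = 0.320) and TTC21B (0.28, adjusted p = 0.345). IFT22, a small GTPase of the IFT-B core, ran from 4.48 to 4.90 (median 4.87) in Oxy210 and from 4.91 to 5.54 (median 5.01) in Control. It was the only member with separate ranges, which 0.165% of all genes had, though the gap between the groups was narrow, and 59.0% of its exon bases overlap a gene on the other strand. IFT20 ran from 5.61 to 5.92 (median 5.69) against 5.63 to 6.30 (median 5.90), and IFT80 from 5.16 to 5.62 (median 5.34) against 4.87 to 5.53 (median 5.03). TTC21B ran from 4.35 to 4.94 (median 4.63) against 4.0 to 4.63 (median 4.43).

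With GC offsets the median of Oxy210 over Control was 0.02, and 6 members had an unadjusted p under 0.05, where 14.4% of all genes had. IFT80 (0.15) and TTC21B (0.15) were no longer among them. IFT22 (-0.28) and IFT20 (-0.26) were, beside IFT57 (-0.25), DYNC2LI1 (-0.25), BBS5 (-0.32) and IFT140. IFT140 had 0.36 (edgeR adjusted p = 0.144, the smallest of the 34), beside 0.32 in Oxy186 and 0.48 in Oxy186 r1 to r4. These 3 values share the Control tumors.

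Oxy186 and Oxy210 are related compounds given at the same dose, and all 7 tumors of each were compared, the only pair of compounds. No member and no gene was called by edgeR (0% of 16361), no member by limma voom or DESeq2, and 3 genes by DESeq2. The median log2 fold change of the 34 genes, Oxy186 over Oxy210, was -0.02, with 14 above 0. For all genes it was -0.0068, with 7939 of 16361 above 0. IFT22 was higher in value in Oxy186 by 0.39 (95% interval 0.06 to 0.72) and IFT57 by 0.36 (0.02 to 0.70), the 2 members with an unadjusted p under 0.05, where 4.06% of all genes had one. The adjusted p of each was 1.00. IFT57 ran from 5.22 to 6.30 (median 5.33) in Oxy186, with r3 the highest, and from 5.09 to 5.45 (median 5.18) in Oxy210. No member had separate ranges, as did 0.0672% of all genes. The largest value the other way was KIF3A at -0.27, with an interval of -0.56 to 0.03. With GC offsets it had -0.25, and KIF3A, IFT22 and IFT57 had an unadjusted p under 0.05, where 8.12% of all genes had one, with edgeR adjusted p-values from 0.489 to 0.560. For BBS4, whose value was close to 0, the interval was -0.22 to 0.24. Changes within such intervals were not detectable with these tumors, and a missed threshold does not show that the compounds act alike.

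**Figure D5:**
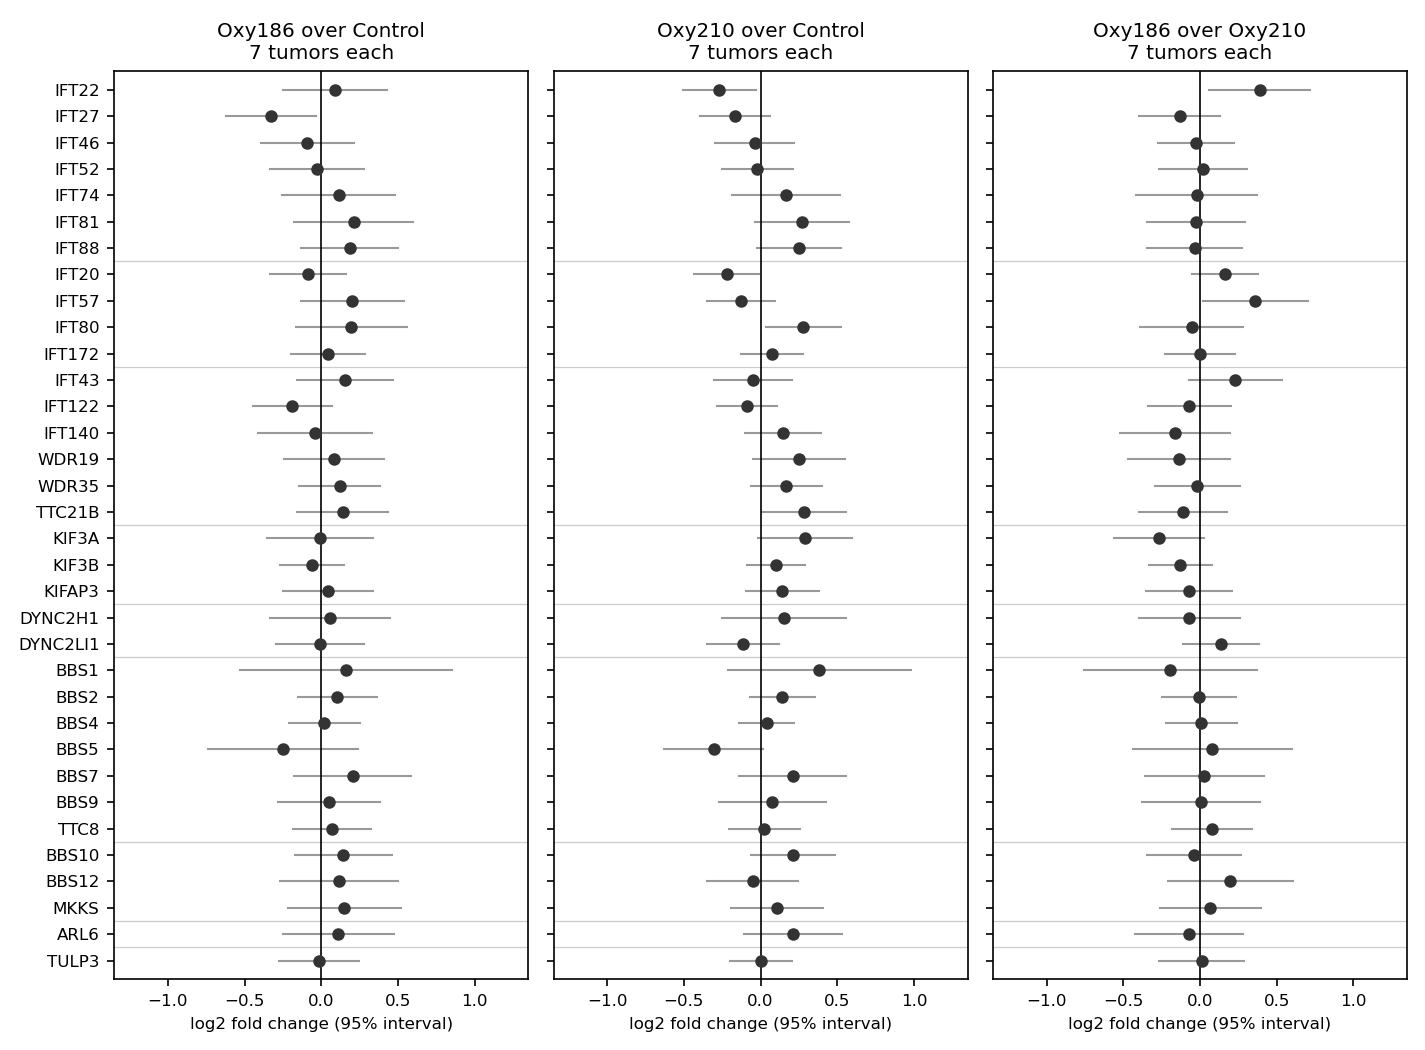
Log2 fold change with its 95% interval for each of the 34 genes in 3 comparisons of 7 tumors with 7: Oxy186 over Control, Oxy210 over Control and Oxy186 over Oxy210. No gene passed the adjusted threshold, and all values lie between -0.33 and 0.39.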

How the data were processed

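Per the labels and the study's methods, total RNA with an RNA integrity number over 8.0 was made into NEBNext Ultra II libraries. The authors trimmed reads with Trimmomatic 0.39, aligned them with STAR 2.7.6a to a combined human (GRCh38.p13) and mouse (GRCm39) genome, kept human alignments, and deposited raw counts per gene from featureCounts (Subread 2.0.1). The strand setting is not given in the sources used here. They also deposited log2 CPM (edgeR, TMM) of Control and Oxy186 r1 to r4, used only for a check: recomputed values (prior count 2) differed by at most 4.97e-14. All values printed come from the counts.

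The 34 members and the other lists were chosen with earlier results of these data known. Each comparison was fitted on its own libraries with edgeR 4.0.16 (filterByExpr, TMM, quasi-likelihood test, R 4.3.3), and log2 CPM per tumor was scaled over all 21. The SE is the size of the log2 fold change divided by the square root of F. Exon GC content, lengths and overlaps came from GENCODE 44 on GRCh38, and GC offsets came from a spline (4 degrees of freedom) fitted in each library to genes averaging at least 1 log2 CPM. Alternatives were limma voom (limma 3.58.1), DESeq2 1.42.0, other scalings and filters, a replicate block and leaving out libraries. All 34 members are named. Each called member, and the first of a role with none called, got values per tumor, and other lists were limited to called genes. The fits were checked on simulated counts. Labels do not say that each tumor came from its own mouse, so p-values measure the spread between these samples.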

Additional observations from a re-analysis of the deposited data

Results flagged for a closer look

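Of 102 groups of 7 tumors (34 genes in 3 groups), 9 held a tumor whose gap to the nearest other tumor was a large share of the group's whole range by Dixon's 95% criterion. Chance gives about 5.1 such groups. In Control these were IFT22 in r4 at a log2 CPM of 5.544 (next 5.155), IFT80 in r7 at 5.53 (next 5.087), BBS4 in r1 at 5.513 (next 5.687) and BBS12 in r2 at 3.282 (next 3.031). In Oxy186 they were DYNC2H1 in r6 at 3.379 (next 3.74), ARL6 in r6 at 2.443 (next 3.104) and BBS1 in r3 at -0.3786 (next 0.7521). In Oxy210 they were IFT22 in r1 at 4.482 (next 4.773) and IFT20 in r7 at 5.916 (next 5.724). Control r7 is the tumor through which the ranges of IFT80 overlapped, and Oxy186 r6 had the highest GC slope of the 21 libraries.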

How the results depend on the processing

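In Oxy186 r1 to r4 against Control, limma voom, RLE size factors and a minimum of 10 counts in every library called IFT27 and IFT122 lower and IFT80 higher, as in the report. DESeq2 called 2 lower and 7 higher, the fit of all 21 libraries 2 lower and 3 higher, and both library size alone and no filter 1 lower (IFT27) and 0 higher. GC offsets called 0 lower and 1 higher with a median of 0.0106, GC offsets from canonical transcripts 0 and 0 with 0.0320, and those that left library means in place 2 (IFT27 and IFT122) and 0 with -0.102, where the median of all genes was -0.11. Of 16852 genes tested, 2526 were called lower and 797 higher in the report, and 2850 and 1535 by DESeq2. Such calls were 2449 and 845 by limma voom, 2379 and 1006 with RLE size factors and 2318 and 761 with library size alone. They were 2195 and 939 of 14079 genes with at least 10 counts in every library. In the fit of all libraries they were 2681 and 1323 of 18254, and with no filter 2627 and 418 of 36420. Of 16852 genes again, they were 2101 and 272 with the block described next and 381 and 302 with GC offsets. They were 299 and 254 with canonical transcripts and 691 and 147 with library means kept. The latter 2 alternatives were chosen after seeing the data, as was leaving out Control tumors. Keeping library means also turned the median of all 7 Oxy186 tumors against Control to -0.0679. IFT140 turned to 0.48, 0.35 and 0.37 under these 3 kinds of offset in that order, KIF3A to -0.17, -0.17 and -0.28, and DYNC2H1 to -0.0929, -0.0909 and -0.20. ARL6 turned to -0.015 with canonical transcripts and -0.11 with library means kept, and BBS10 to -0.0927 with library means kept.

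The replicate numbers did not pair the tumors: the correlation of same-numbered deviations ran from -0.40 to 0.05 between Oxy186 and Control, -0.40 to 0.33 between Oxy210 and Control and -0.32 to 0.11 between the compounds. With a replicate block, 0 members were lower and 1 higher (IFT81), and BBS1 turned to -0.10. With the replicate block and GC offsets there were 0 and 0 (53 and 15 of all 16852 genes), the median was 0.0314, IFT140 turned to 0.51 and KIF3A to -0.10. The block changed no member's call in the other 3 comparisons.

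Leaving out 1 tumor at a time gave 0 to 2 lower and 0 to 4 higher calls, with IFT27 from -0.59 to -0.46, IFT122 from -0.41 to -0.31, IFT80 from 0.33 to 0.52 and BBS1 from -0.18 to 0.29. These fits tested 16640 to 17221 genes each. Calls over all genes also moved in them, from 1488 to 2831 lower and from 257 to 1126 higher. They were 1488 and 347 without Oxy186 r4, 2681 and 1016 without Control r6, and 2831 and 1126 without Control r7. Without Oxy186 r4 no member was called. Without Control r6, IFT81, IFT88, WDR35 and BBS7 were higher, and without Control r7, IFT81, IFT88, BBS7 and IFT80, so 4 each time. The call was IFT57 without Oxy186 r1, IFT80 without Oxy186 r3 and MKKS without Control r4. IFT27 was called in 10 of the 11 fits, IFT122 in 5 and IFT80 in 2. Without Oxy186 r1 or r3, or Control r1, r3 or r4, 1 was lower, and without Oxy186 r2 or Control r1, r2, r3 or r5, 0 were higher. The cause of these differences was not tested. In the other 3 comparisons, where no tumor was left out, none of the other alternatives called a member. Low counts limit BBS1, with 9 to 43 per library.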
